A study of Mus musculus with 12 samples.

Results

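The 6 genes described here make urate or carry it across cell membranes: the reabsorbing carriers Slc22a12 and Slc2a9, the secreting carriers Slc17a1, Slc17a3 and Abcg2, and Xdh, the enzyme that forms urate. They were taken by gene symbol from the 23238 different symbols in the data, with earlier results of these data known. Each of the 6 was among the 13943 genes expressed highly enough to be tested. Transcripts were measured in whole kidneys of C57BL/6 mice by QuantSeq, which sequences the 3′ ends of polyadenylated RNA and so counts about 1 tag per transcript. The 12 libraries fell into 3 groups of 4. All were of the strain C57BL/6. One group is labelled Control, another has chronic kidney disease and is labelled CKD, and the third, labelled CKD TRF, has the disease and was fed only within a limited window of each day (time restricted feeding). No treatment common to every group is named. The way the disease was produced, the feeding window, the diet, the sampling time and the age and sex of the mice are not in the labels. Nor do they tie each library to its own animal, so p-values here reflect library-to-library spread, which may be technical.

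Urate is the end product of purine breakdown in humans, whereas mice keep uricase, mainly in the liver, and break urate down further. In the kidney, urate is filtered and then both reabsorbed and secreted by cells of the proximal tubule. Slc22a12 (URAT1) takes urate up from the tubule lumen in exchange for organic anions, and Slc2a9 (GLUT9) passes it on toward the blood. Slc17a1 (NPT1) and Slc17a3 (NPT4) are carriers of the luminal membrane that release urate and other organic anions into the forming urine, and Abcg2 (BCRP) is an ATP-driven pump that exports urate. Xdh (xanthine dehydrogenase, also called xanthine oxidase) turns hypoxanthine into xanthine and xanthine into urate.

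Levels are given as log2 values as deposited, which are log2 of a scaled read number plus 1, or as scaled reads, the number before the logarithm. Each library held between 10989822 and 17209861 reads, and the Control libraries, at 10989822 to 12810669, were the shallowest. The limit that a count of 0 allows, 3 reads, was worth 0.168 to 0.306 scaled reads, for counting error only. Scaled sums were 1076773 to 1180101 in Control, 941189 to 978419 with CKD and 987841 to 1025834 with CKD TRF, and because these did not overlap, results that turn on the scaling are named as such. Of the CKD libraries 2 and 4, and of the CKD TRF libraries 1, 3 and 4, each held 68.2 to 389.8 scaled reads of 7 fat cell markers, against 0.340 to 12.4 in the other 7 libraries. This sum leaves out Car3, a listed fat marker at 36.4 ± 10.8 scaled reads in Control that did not pass in CKD (-0.03), and the choice was made with its values known. With Car3 the sums were 23.5 to 46.9 in Control, 15.2 to 527 with CKD and 15.7 to 201 with CKD TRF. Of 7 tested fat markers, Car3 included and the thinly counted Lep not, 6 rose in CKD and 4 in CKD TRF against Control. Where a call below ended without those 5 libraries, the value without them is given. Such a fit keeps 2 CKD libraries and 1 CKD TRF library, and the lone library is assumed to vary like the other groups, so a call lost there also reflects fewer libraries. In bulk kidney RNA, fewer cells of a type and less RNA per cell cannot be told apart.

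Slc17a3 and Slc17a1 are neighbours on chromosome 13 of GRCm38 (mm10), both on the forward strand. Slc17a3 lies at chr13:23839434-23860716 and Slc17a1 at chr13:23867750-23895730, with 7033 bases between them. Their promoters are shown because these adjacent genes of related carriers moved to different extents, as given below. RefSeq promoters (GRCm38.p6) matched 5 of the 6 genes by symbol, all but Xdh. The sequences are written 5′ to 3′ on the forward strand from position -200 to position -11 relative to an annotated start. Capitals mark the first forward-strand stretch among those closest to CAAAGTCCA, a 9-base element bound by HNF4 transcription factors.
Slc17a1 (chr13:23870073-23870262): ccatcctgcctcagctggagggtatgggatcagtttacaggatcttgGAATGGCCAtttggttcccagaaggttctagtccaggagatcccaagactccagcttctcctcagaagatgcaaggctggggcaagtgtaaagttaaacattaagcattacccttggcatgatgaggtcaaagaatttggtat
Slc17a3 (chr13:23839234-23839423): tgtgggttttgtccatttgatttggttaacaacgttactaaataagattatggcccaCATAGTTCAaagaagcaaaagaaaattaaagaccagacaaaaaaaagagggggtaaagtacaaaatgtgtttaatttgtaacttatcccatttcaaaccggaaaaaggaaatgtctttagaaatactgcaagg
The Slc17a1 stretch precedes the downstream of its 2 listed starts and lies in an intron of the gene, and the Slc17a3 stretch lies outside annotated genes.

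In the stretches shown, Slc17a3 differed from the HNF4 element at 2 bases, beginning at position -143, and 42.7% of all promoters held one as close in the same 190 bases. Slc17a1 differed at 3 bases, which 96.4% of promoters reached. The marked stretch was 1 of 4 in Slc17a3 and 1 of 7 in Slc17a1 that were equally close, counting both strands. Both strands of the 300-base window of each of 32851 promoters (250 bases before a start and 50 after it) were searched in the same way. The first listed start of Slc17a1 had 1 mismatch, shared by 8.47% of promoters. The windows of Slc17a3, Slc22a12 and Slc2a9, of the second Slc17a1 start and of 1 Abcg2 start had 2 mismatches, which 58.6% of promoters reached. The other 2 Abcg2 starts had 3, reached by 99.2%. These matches describe the letters of the windows and not binding, which was not measured.

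Of the 6 genes, 4 fell and 1 rose in CKD against Control, and the same 4 fell and the same 1 rose in CKD TRF against Control. Slc22a12, Slc2a9, Slc17a3 and Abcg2 were lower in both diseased groups, Xdh was higher in both, and Slc17a1 did not pass the test. Over the 13943 tested genes, 21.8% were called lower and 23.6% higher in CKD against Control (limma, Benjamini-Hochberg adjusted p under 0.05), and 17.9% and 19.5% in CKD TRF against Control. For 5 of the 6 the libraries of Control and CKD did not overlap, as for 39.5% of all tested genes, and for the same 5 Control and CKD TRF did not overlap, as for 31.9%. The median change of the 6 was -0.54 on the log2 scale in CKD and -0.56 in CKD TRF against Control, where all tested genes had medians of 0.02 and 0.01. The 2 comparisons share the Control libraries. None of the 6 passed the test between CKD TRF and CKD, as described at the end.

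**Figure D1:**
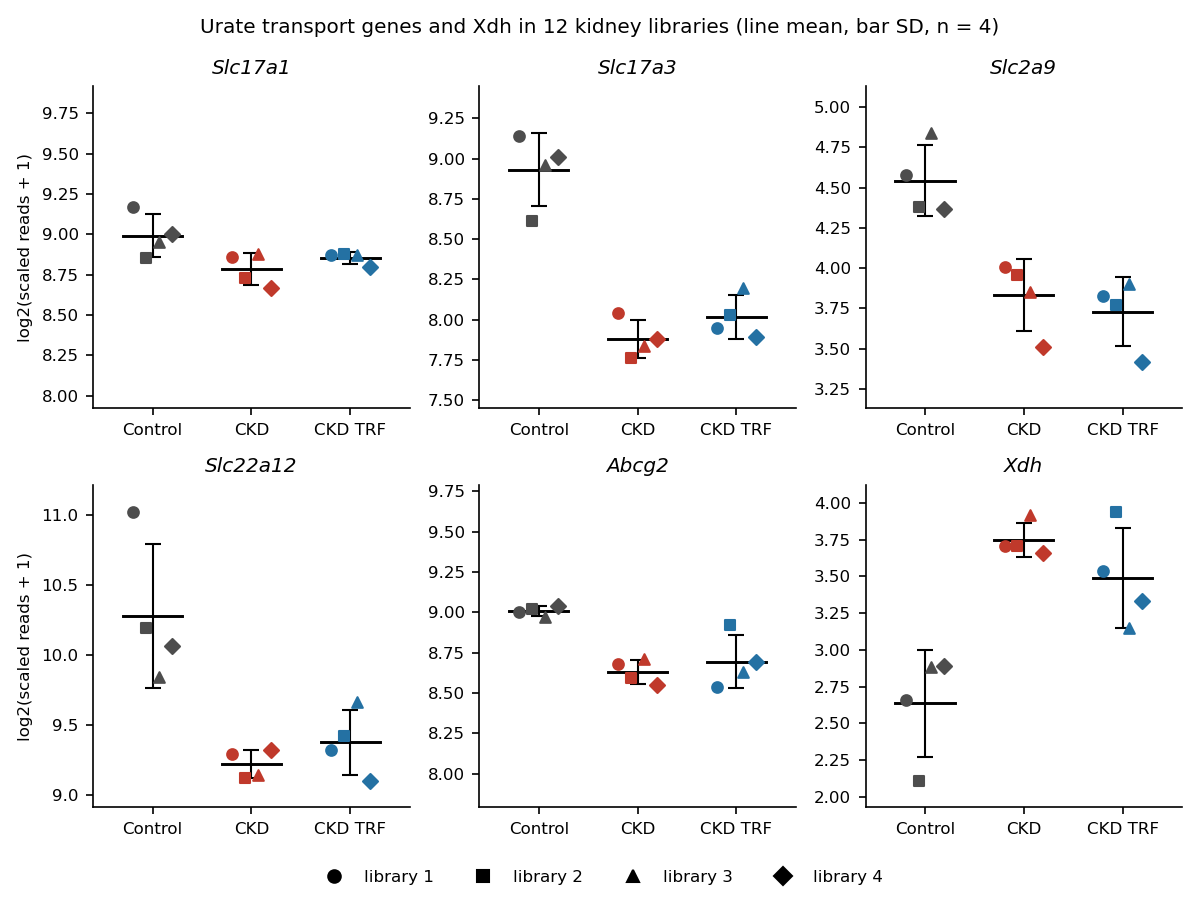
Deposited log2 values (log2 of scaled reads + 1, vertical axis) of the 6 genes in each of the 4 libraries of Control, CKD and CKD TRF, with the mean as a line and the SD as a bar. The axes differ between genes. All 8 diseased libraries lie below all 4 Control libraries for Slc17a3, Slc2a9, Slc22a12 and Abcg2 and above them for Xdh, and Slc17a1 overlaps.

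Slc22a12, the luminal uptake carrier, lies at chr19:6535845-6543032 on the reverse strand. Its log2 values were 11.02, 10.19, 9.84 and 10.06 in Control libraries 1 to 4, and 9.29, 9.12, 9.14 and 9.32 in CKD. In CKD TRF they were 9.32, 9.42, 9.66 and 9.10. Every diseased library was below every Control library, and Control library 1 stood well above the other Control libraries. In scaled reads the means were 1304 ± 522 (SD, n = 4) in Control, 595 ± 42.6 with CKD and 669 ± 107 with CKD TRF. Slc22a12 fell by 1.06 ± 0.18 (SE) on the log2 scale in CKD (limma, adjusted p = 7.32e-05) and by 0.90 ± 0.18 in CKD TRF (adjusted p = 0.000500). Without Control library 1 the change in CKD was -0.81 ± 0.12 (limma, adjusted p = 4.85e-05). Without the 5 libraries with fat markers, the change in CKD TRF, from 1 library, was of like size at -0.86 but did not pass (limma, adjusted p = 0.101). Slc22a12 shares exon sequence with Nrxn2, a neurexin gene on the other strand, and the labels do not state whether counting used the strand. No Nrxn2 exon lies within 1000 bases of the 3′ end of Slc22a12, where QuantSeq reads fall, and Nrxn2 itself had 36.7 ± 10.0 scaled reads in Control, 37.7 ± 5.61 with CKD and 41.1 ± 5.45 with CKD TRF.

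Slc2a9, the carrier that passes reabsorbed urate toward the blood, lies at chr5:38349273-38503143 on the reverse strand. Its log2 values were 4.58, 4.38, 4.84 and 4.37 in Control, 4.01, 3.96, 3.85 and 3.51 with CKD, and 3.83, 3.77, 3.90 and 3.42 with CKD TRF. Control and the diseased groups did not overlap, and library 4 was the lowest of each diseased group. These values rest on 148 to 325 reads per library. The means were 22.5 ± 3.70 scaled reads (SD, n = 4) in Control, 13.4 ± 2.08 with CKD and 12.4 ± 1.84 with CKD TRF. Slc2a9 fell by 0.71 ± 0.16 on the log2 scale in CKD (limma, adjusted p = 0.00131) and by 0.81 ± 0.16 in CKD TRF (adjusted p = 0.000550). All 6 tested urothelium markers rose in both diseased groups, with summed levels of 3.68 to 14.7 scaled reads in Control, 28.9 to 141 with CKD and 32.8 to 121 with CKD TRF. The Slc2a9 call ended in both comparisons when the level of fat and urothelium markers entered the fit as a covariate. The changes were then -0.53 ± 0.23 (limma, adjusted p = 0.0905) and -0.64 ± 0.23 (adjusted p = 0.0504). The urothelium part of this covariate did not overlap between Control and the diseased groups. Such a fit can therefore hardly separate the covariate from the disease. Without the 5 libraries with fat markers the change in CKD TRF, from 1 library, was of like size at -0.77 but did not pass (limma, adjusted p = 0.0713).

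Slc17a3 was the secreting carrier with the largest fall. Its log2 values were 9.14, 8.61, 8.96 and 9.01 in Control, 8.04, 7.76, 7.84 and 7.88 with CKD, and 7.95, 8.03, 8.20 and 7.89 with CKD TRF. The lowest Control library was above the highest diseased library. The means were 489.9 ± 73.3 scaled reads (SD, n = 4) in Control, 235 ± 19.3 with CKD and 259 ± 24.5 with CKD TRF. Slc17a3 fell by 1.05 ± 0.11 on the log2 scale in CKD (limma, adjusted p = 3.27e-07) and by 0.91 ± 0.11 in CKD TRF (adjusted p = 2.97e-06). It passed the test in all 27 alternatives run for each comparison with Control. Its change and that of Slc22a12 in CKD lay at percentiles 1.90 and 1.78 of the changes of all tested genes.

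Slc17a1, the neighbour of Slc17a3, had log2 values of 9.17, 8.85, 8.95 and 9.00 in Control, 8.86, 8.73, 8.88 and 8.67 with CKD, and 8.87, 8.88, 8.87 and 8.80 with CKD TRF. The groups overlapped, since Control library 2 was below CKD libraries 1 and 3 and CKD TRF libraries 1 to 3. The means were 509.8 ± 47.7 scaled reads (SD, n = 4) in Control, 441 ± 30.3 with CKD and 462 ± 11.5 with CKD TRF. The change was -0.21 ± 0.09 on the log2 scale in CKD (limma, adjusted p = 0.0725) and -0.14 ± 0.09 in CKD TRF (adjusted p = 0.254). Its sign depended on the scaling. In CKD the change was 0.15 after quantile normalization and 0.02 after scaling to equal sums, neither past the test, and -0.31 after median centring, which passed (limma, adjusted p = 0.00896). It also passed without Control library 2, at -0.25 (limma, adjusted p = 0.0303), and with sample weights, at -0.21 (adjusted p = 0.0491).

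A ratio of the 2 neighbours within each library does not depend on the scaling factor, and it was examined after their values had been seen. The log2 value of Slc17a3 minus that of Slc17a1 was -0.03, -0.24, 0.01 and 0.00 in Control, -0.82, -0.98, -1.04 and -0.79 with CKD, and -0.93, -0.85, -0.67 and -0.91 with CKD TRF. All 8 diseased libraries were below all 4 Control libraries. The mean difference from Control was -0.84 in CKD and -0.77 in CKD TRF, given as a description with no test because the pair was picked on these values. CKD TRF and CKD differed by 0.07 and overlapped. The difference from Control stayed between -0.90 and -0.80 in CKD, and between -0.83 and -0.74 in CKD TRF, over 14 alternatives that left out libraries or changed the added constant. The ratio does not show that Slc17a1 itself was constant.

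Abcg2, the ATP-driven efflux pump, lies at chr6:58584523-58695676 on the forward strand. Its log2 values were 9.00, 9.02, 8.97 and 9.04 in Control, 8.68, 8.59, 8.71 and 8.55 with CKD, and 8.54, 8.92, 8.63 and 8.69 with CKD TRF. The Control libraries lay close together and above all diseased libraries, and CKD TRF library 2 came closest to them. The means were 513 ± 9.64 scaled reads (SD, n = 4) in Control, 397 ± 20.7 with CKD and 415 ± 48.5 with CKD TRF. Abcg2 fell by 0.37 ± 0.09 on the log2 scale in CKD (limma, adjusted p = 0.00279) and by 0.31 ± 0.09 in CKD TRF (adjusted p = 0.0119). In CKD its change lay at percentile 21.7 of all tested genes. The call depended on the scaling. In CKD the change was -0.48 after median centring, which passed (limma, adjusted p = 0.000362), but -0.03 after quantile normalization (adjusted p = 0.767) and -0.15 after scaling to equal sums (adjusted p = 0.214). Without the 5 libraries with fat markers it was -0.31 (limma, adjusted p = 0.0848), and in CKD TRF -0.09 (adjusted p = 0.793). Abcg2 is also made by endothelium, of whose 10 markers 4 rose and 0 fell in CKD, and 5 rose and 0 fell in CKD TRF. Of all tested genes 23.6% rose in CKD and 19.5% in CKD TRF. The summed levels of the endothelial markers were 398 to 569.9 scaled reads in Control, 533 to 637 with CKD and 543 to 706 with CKD TRF. Their part in the Abcg2 level was not tested.

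Xdh, the enzyme that forms urate, lies at chr17:73883895-73950196 on the reverse strand and was the only member that rose. Its log2 values were 2.66, 2.11, 2.88 and 2.89 in Control, 3.71, 3.71, 3.92 and 3.66 with CKD, and 3.54, 3.94, 3.15 and 3.33 with CKD TRF. Every diseased library was above every Control library, with CKD TRF library 3 the nearest to them. Xdh was the most thinly counted of the 6 genes, with 36 to 75 reads per Control library, 178 to 243 with CKD and 132 to 217 with CKD TRF. The means were 5.35 ± 1.45 scaled reads (SD, n = 4) in Control, 12.5 ± 1.10 with CKD and 10.5 ± 2.83 with CKD TRF. Xdh rose by 1.11 ± 0.20 on the log2 scale in CKD (limma, adjusted p = 0.000169) and by 0.86 ± 0.20 in CKD TRF (adjusted p = 0.00240), and it passed in all 27 alternatives of both comparisons.

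Other cells can make Xdh, and several marker lists rose between Control and the diseased groups. In CKD all 8 macrophage markers, all 6 tubular injury markers and 4 of 10 endothelial markers rose, where 23.6% of all tested genes did. The summed level of the macrophage markers was 193 to 248 scaled reads in Control, 687 to 874 with CKD and 634 to 823 with CKD TRF. None of the 8 was at 0 in any group. The part of any of these cells in the Xdh level was not tested. Without the 5 libraries with fat markers the Xdh change was 1.18 ± 0.27 in CKD (limma, adjusted p = 0.00478) and 1.31 ± 0.34 in CKD TRF (adjusted p = 0.0268), the latter from 1 library.

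**Figure D2:**
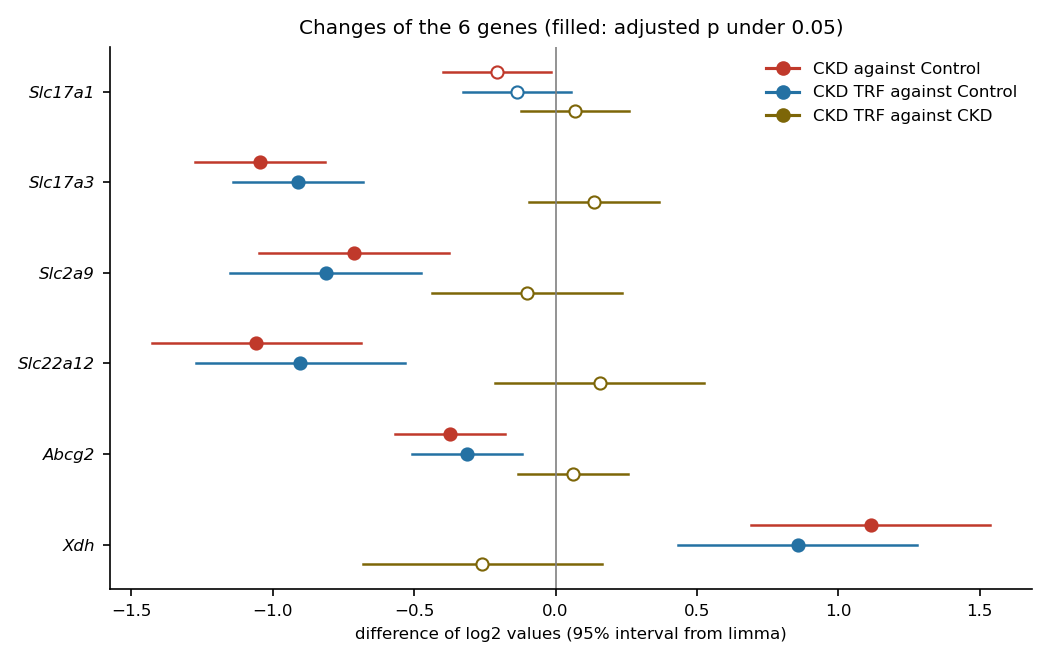
Differences of log2 values (horizontal axis) for the 6 genes in the 3 comparisons, with 95% intervals from limma (n = 4 per group). Filled points passed an adjusted p of 0.05. For each gene both comparisons with Control give differences of the same sign, and every interval of CKD TRF against CKD includes 0.

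The proximal tubule, where most of these carriers act, was measured through 33 markers of that segment. Of all tested genes 21.8% fell in CKD and 17.9% in CKD TRF. Of the 33 markers, 28 fell and 0 rose in CKD, and 25 fell and 0 rose in CKD TRF, with a median change of -0.78 in both. The 5 that did not pass in CKD were the phosphate transporter Slc34a1 (-0.29), the uptake receptors Lrp2 and Cubn (-0.31 each), the amino acid transporter Slc7a7 (-0.19) and the bicarbonate transporter Slc4a4 (0.05). The summed level of all 33 markers was 82441 to 98902 scaled reads in Control, 43915 to 52759 with CKD and 50694 to 57891 with CKD TRF. None of the 33 was at 0 in any group. Each member was therefore also set against the median of the markers in the same library, a difference that the scaling factor hardly touches. For Slc17a3 and Slc22a12 this measure differed by 0.00 and -0.01 between CKD and Control, and the groups overlapped. Slc2a9 differed by 0.34, with overlapping groups, and was set against proximal tubule markers only. Of 12 markers of the loop of Henle and distal convoluted tubule, 6 rose and 2 fell in CKD (median 0.50). In CKD TRF 3 rose and 2 fell (median 0.34). Of all tested genes 23.6% rose in CKD and 19.5% in CKD TRF. The segment in which Slc2a9 was made was not measured.

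For Slc17a1 this measure was higher in the diseased libraries than in Control. Its own change in CKD, -0.21, lay within the range of the markers named above that did not pass. Its level minus the marker median was -0.15, 0.00, 0.01 and -0.10 in Control, 0.99, 1.08, 0.75 and 0.32 with CKD, and 0.91, 0.70, 0.82 and 0.12 with CKD TRF. Control did not overlap with either diseased group, and library 4 of each diseased group was the closest to Control. The mean difference was 0.84 in CKD and 0.70 in CKD TRF, each with a two-sided exact permutation p = 0.0286, the smallest possible. Abcg2 was higher by 0.67 in CKD (exact permutation p = 0.0286) and by 0.52 in CKD TRF (exact permutation p = 0.0857). Xdh was higher by 2.16 and 1.69 (exact permutation p = 0.0286 each). Adjusted over the 18 tests of 6 genes and 3 comparisons, the lowest p was 0.103, so none passed 0.05. No single gene could pass this adjustment with 4 libraries per group, however far apart they lay. The outcome therefore does not decide whether a gene moved apart from the markers. With the mean of the markers in place of the median the differences in CKD were 0.57 for Slc17a1, 0.40 for Abcg2, -0.27 for Slc17a3 and -0.28 for Slc22a12, and the lowest adjusted p was 0.0857 (exact permutation). The size of these differences thus depends on how the markers are summarised.

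**Figure D3:**
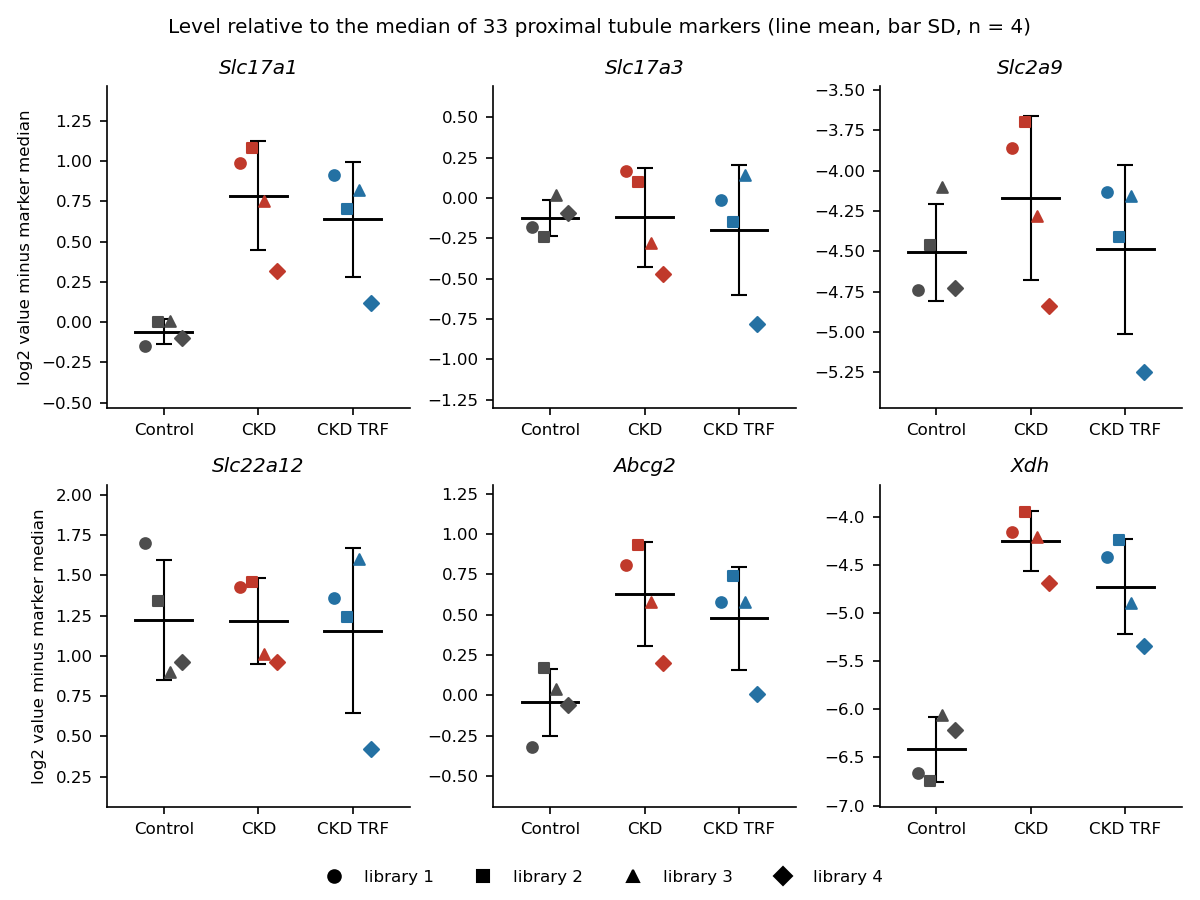
Log2 value of each gene minus the median log2 value of 33 proximal tubule markers in the same library (vertical axis), for 4 libraries per group, with the mean as a line and the SD as a bar. Slc17a3 and Slc22a12 overlap between all groups, while Slc17a1 and Xdh lie higher in every diseased library than in any Control library.

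Other carriers, pumps and scaffolds linked to urate moved mostly the same way as the reabsorbing and secreting members. Of 15 tested, 11 fell and 2 rose in CKD (median -0.48), and 10 fell and 2 rose in CKD TRF (median -0.45). Over all tested genes 21.8% fell and 23.6% rose in CKD, and 17.9% and 19.5% in CKD TRF. Slc17a4, a relative of Slc17a1, fell by 1.02 ± 0.27 in CKD, from 5.47 ± 1.16 to 2.19 ± 0.499 scaled reads. Slc22a13 (OAT10), a luminal exchanger, fell by 0.95 ± 0.15, and Slc22a7 (OAT2) fell by 0.94 ± 0.17. Slc22a6 (OAT1), which takes organic anions up from the blood side, fell by 0.91 ± 0.13, from 1168 ± 143 to 617 ± 54.2 scaled reads. Pdzk1 is the scaffold that holds Slc22a12 and Slc17a1 at the brush border, and it was named here after its values were seen. It fell by 0.82 ± 0.09 in CKD and by 0.63 ± 0.09 in CKD TRF. Its CKD TRF call ended without the 5 libraries with fat markers, at -0.55 from 1 library. The 2 that rose were Abcc4 (MRP4), an efflux pump for organic anions, by 0.77 ± 0.17, and Lgals9 (galectin-9), by 0.70 ± 0.16. These 7 passed in each of the 27 alternatives for CKD against Control, the highest adjusted p being 0.0430 for Slc17a4 (limma).

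Hnf4a and Hnf4g encode HNF4 transcription factors, of which Hnf4a maintains the differentiated proximal tubule. Hnf4a fell by 1.09 ± 0.10 in CKD, from 511 ± 38.8 to 239 ± 27.9 scaled reads, and by 0.96 ± 0.10 in CKD TRF. Hnf4g fell by 0.77 ± 0.25 in CKD and by 0.71 ± 0.25 in CKD TRF, but these calls held in only 20 and 17 of the 27 alternatives. Hnf4g differed by -0.55 in CKD (limma, adjusted p = 0.192) and by -0.32 in CKD TRF (adjusted p = 0.657) without the 5 libraries with fat markers. The levels of these factors and the sequence matches above are set side by side only, and no relation between them was tested.

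On the way to urate, 9 genes of purine breakdown toward xanthine were tested. In CKD 2 rose and 4 fell, where 23.6% of all tested genes rose and 21.8% fell. In CKD TRF 2 rose and 2 fell, where 19.5% and 17.9% of all tested genes did. The counts that rose, and that which fell in CKD TRF, were thus near the share over all genes. Gda, guanine deaminase, which makes xanthine from guanine, rose by 0.95 ± 0.15 in CKD and by 0.75 ± 0.15 in CKD TRF. The CKD TRF call of Gda ended without the 5 libraries with fat markers, at 0.68 from 1 library. Ampd3, an AMP deaminase, rose by 0.84 ± 0.21 in CKD and by 1.00 ± 0.21 in CKD TRF. Its call ended in both comparisons without the 5 libraries with fat markers, at 0.60 (limma, adjusted p = 0.126) and 0.66 (adjusted p = 0.266). The nucleotidases Nt5c3 and Nt5c fell by 0.67 ± 0.10 and 0.65 ± 0.14 in CKD. Nt5e, which forms adenosine outside the cell, fell by 0.44 ± 0.17 and Pnp, which releases hypoxanthine and guanine from nucleosides, fell by 0.34 ± 0.11, in 12 and 20 of the 27 alternatives. Their changes in CKD were -0.36 (limma, adjusted p = 0.248) and -0.35 (adjusted p = 0.11) without the 5 libraries with fat markers.

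In purine salvage 1 of 3 genes fell in CKD, where 21.8% of all tested genes did. It was the adenosine kinase gene Adk, by 0.53 ± 0.09. In purine synthesis 2 of 13 fell and 0 rose in both comparisons with Control, which is below the 21.8% and 17.9% of all tested genes that fell. Paics, which catalyses 2 steps in the middle of the pathway, fell by 0.99 ± 0.10 in CKD and by 0.96 ± 0.10 in CKD TRF, from 1003 ± 95.5 to 504 ± 25.9 and 515 ± 39.6 scaled reads. Ppat, the enzyme of the committed first step, fell by 0.30 ± 0.11 in CKD, a call that held in 13 of 27 alternatives and ended without the 5 libraries with fat markers, at -0.35 (limma, adjusted p = 0.118).

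Xdh needs the molybdenum cofactor, and of 7 tested genes that make it or need it, 3 fell and 1 rose in CKD, and 4 fell and 1 rose in CKD TRF. Of all tested genes 21.8% fell and 23.6% rose in CKD, and 17.9% and 19.5% in CKD TRF, so the single gene that rose is below those shares. Mocs2, which builds molybdopterin, fell by 1.22 ± 0.11 in CKD and by 1.07 ± 0.11 in CKD TRF, and was at 168 ± 20.6, 71.5 ± 7.91 and 79.6 ± 8.29 scaled reads in Control, CKD and CKD TRF. Suox, sulfite oxidase, fell by 0.60 ± 0.12 and Gphn, which inserts the metal, by 0.56 ± 0.12 in CKD. The tested molybdenum enzyme that rose with Xdh was Aox3, an aldehyde oxidase, by 0.87 ± 0.29 in CKD, and in 20 of 26 alternatives. It was at only 0.328 ± 0.389 scaled reads in Control and 1.47 ± 0.801 in CKD. Aox1, also listed, was too low to be tested. It was at 0 to 0.0913 scaled reads in Control, 0.655 to 1.46 with CKD and 0.286 to 1.13 with CKD TRF. The Aox3 change was 0.74 (limma, adjusted p = 0.175) without the 5 libraries with fat markers.

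Of the 4 genes of urate breakdown, 3 had few reads or none. Uox, uricase, had no read in Control and reached at most 1.18 scaled reads in CKD, and Urad and Allc had no read in any library. Urah, which acts on the product of uricase, was at 7.07 ± 2.04 scaled reads in Control, 5.17 ± 0.495 with CKD and 6.71 ± 1.44 with CKD TRF, and did not pass in CKD (-0.36 ± 0.20, limma, adjusted p = 0.162). Without the 5 libraries with fat markers, CKD TRF kept 1 library, and of the list genes given a CKD TRF value above only Hnf4a, Paics and Mocs2 still passed against Control. Of the genes named from these lists, 0 passed in CKD TRF against CKD (limma).

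**Figure D4:**
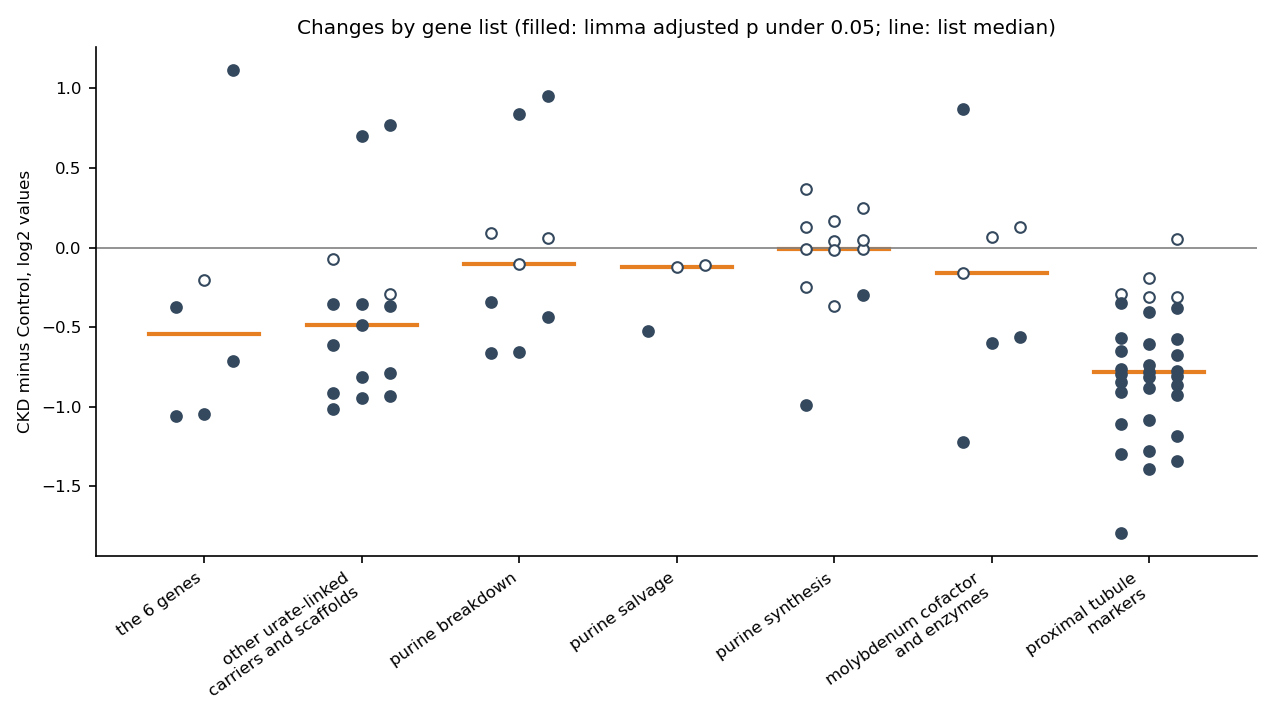
Differences of log2 values between CKD and Control (vertical axis) for each tested gene of the 6 members and of the gene lists, 1 point per gene, filled where the limma adjusted p was under 0.05, with list medians as lines. The carriers and the proximal tubule markers lie mostly below 0, with medians of -0.48 and -0.78, whereas purine synthesis centres near 0.

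The genes whose 12 log2 values ran closest to each member are given as a description. For Slc17a3 they were 4921524J17Rik (Pearson r = 0.99), Prrg2 and Chpt1 (0.98 each), and for Slc22a12 Gm867 and Acadm (0.97 each), the last an enzyme of fatty acid oxidation. For Slc2a9 they were Pkp4 (0.95), the dicarboxylate carrier Slc13a3 (0.95) and Cmas (0.94), and for Abcg2 Icmt (0.97), Snx6 (0.96) and Lsm12 (0.96). For Slc17a1 they were Rogdi (0.97) and Narfl (0.91), and for Xdh Klhl28 (0.98), the interleukin receptor gene Il18r1 (0.98) and Zcchc10 (0.97). With group means removed, these r values were 0.70 to 0.93. All points share libraries, depth and scaling, and each name is among the closest of 13937 genes. Among the members, Slc17a3 and Slc22a12 were the most alike (0.90, and 0.55 with group means removed), followed by Slc17a3 and Slc2a9 (0.88, and 0.38). Slc17a1 and Slc17a3 had 0.81, and 0.71 with group means removed. Over the 12 libraries Xdh ran opposite to the 5 carriers, at -0.48 to -0.79. With group means removed the sign turned for 4 of them, at 0.26 to 0.46, and for Slc22a12 it was -0.18.

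Time restricted feeding was compared with CKD alone in 8 libraries. None of the 6 genes passed, and the groups overlapped for each of them, where 4.50% of tested genes did not overlap. The share of tested genes called was 0% (0 of 13943 by limma, with 890 at an unadjusted p under 0.05, and 0 by limma voom on the recovered reads, with 1383). The differences of CKD TRF from CKD, with 95% intervals, were 0.16 (-0.21 to 0.53) for Slc22a12, -0.10 (-0.44 to 0.24) for Slc2a9 and 0.14 (-0.09 to 0.37) for Slc17a3. For Slc17a1 the difference was 0.07 (-0.12 to 0.26), for Abcg2 0.06 (-0.13 to 0.25), and for Xdh -0.26 (-0.68 to 0.16). The limma adjusted p-values were 0.857 to 0.939. The order of the group means was Control, CKD TRF, CKD from high to low for Slc22a12, Slc17a3, Slc17a1 and Abcg2, Control, CKD, CKD TRF for Slc2a9, and CKD, CKD TRF, Control for Xdh. In each of these orders the diseased groups were neighbours that did not differ beyond their spread. For Slc17a1 neither diseased group passed against Control, although the 95% interval of CKD minus Control, -0.397 to -0.015, excluded 0. For Slc22a12, Slc17a3 and Xdh the interval ends nearest the Control mean were 0.53, 0.37 and -0.68. All fell short of it, since Control lay 1.06 and 1.05 above CKD for the first pair and 1.11 below CKD for Xdh. The ends for Slc2a9 and Abcg2, 0.24 and 0.25, also fell short, where CKD minus Control was -0.71 and -0.37. The Control means carry their own error, which is left out here. CKD minus Control had 95% intervals of -1.43 to -0.69 for Slc22a12 and -0.57 to -0.18 for Abcg2, whose change depended on the scaling.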

How the data were processed

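Per the labels' protocols, Trizol was used for extraction and a Lexogen QuantSeq kit for the libraries. Per the submitters' processing notes, the tools were Bowtie2 and bedtools and the build mm10, with no version or role. The scaling method and strand setting are not given in the sources used here. The authors deposited 1 log2 value per symbol and library, which the values show to be log2 of a whole read number times a library factor, plus 1. Of values below 20 scaled reads, 98.5% to 100% were whole reads within 0.1.

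For 35 symbols with several entries the highest mean was kept, and the upper 60% of genes by mean were tested. All 12 libraries entered 1 limma 3.58.1 model (R 4.3.3), with a mean per group, a level-dependent prior spread and two-sided tests, adjusted over 13943 genes at a threshold of 0.05. Exact permutation tests used SciPy 1.17.1. Log2 differences understate changes near 0. Gene models are from GENCODE M21. Libraries of a group differed by 9.09 to 52.9 times counting noise (chi-square per gene), so no pair agreed within sampling noise, which does not show that they came from separate animals.

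The 6 genes and the lists were chosen with earlier results of these data known. The lists held other urate-linked carriers, HNF4 factors, purine breakdown, salvage and synthesis, urate breakdown and molybdenum genes. They also held markers of proximal tubule, loop of Henle and distal convoluted tubule, tubular injury, macrophages, endothelium, fat and urothelium. List genes were named where among the 4 largest changes per direction past 0.05 in CKD against Control, and the 3 nearest genes by Pearson correlation were named per member. Some genes that these rules reach are not reported here.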

Additional observations from a re-analysis of the deposited data

Results flagged for a closer look

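In the 18 groups of 4 libraries checked (6 genes in 3 groups), 2 held a library whose gap to its nearest neighbour, as a share of the group's range, exceeded Dixon's 95% critical value for 4 values. The log2 value of Slc17a1 in CKD TRF 4 was 8.80, below the other CKD TRF libraries, which lay at 8.87 to 8.88, a gap of 0.921 of the range. The log2 value of Xdh in CKD 3 was 3.92, above the other CKD libraries at 3.66 to 3.71, a gap of 0.830 of the range. Chance alone flags about 5% of groups.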

How the results depend on the processing

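Over 27 alternatives per comparison, Slc17a3 and Xdh passed in each comparison with Control, Slc22a12 in 27 (CKD) and 26 (CKD TRF), Slc2a9 in 26 and 25, and Abcg2 in 21 and 21. Slc17a1 passed in 3 and 0. Genes called in CKD against Control (6333) numbered 4037 without the 5 libraries with fat markers and 3833 with the covariate for fat and urothelium markers, both added after seeing the data, and members past the threshold were then 3 of 6 with the covariate. In CKD TRF against Control (5225 genes) these gave 1478 and 2815 genes and 2 and 3 members. Leaving out 1 library gave 5388 to 6311 genes and 5 to 6 members in CKD, and 4396 to 5150 genes and 5 members in CKD TRF. In CKD TRF against CKD it gave 0 to 1 genes (Plekhh2 without CKD TRF library 1, at 2.70, limma adjusted p = 0.00311), and no filter on low values gave 1 (Adam7, -0.52, adjusted p = 0.00787), with 0 members throughout. The cause of these shifts was not tested, except that fewer libraries entered some fits. The urothelium part of the covariate did not overlap between Control and the diseased groups, so that fit can hardly separate it from the disease. Median centring moved the median of all genes by -0.10 in CKD, scaling to equal sums by 0.20 and the same without the ribosomal Rn45s by 0.25, with 2650 higher and 3918 lower, 4989 and 1547, and 5456 and 1334 genes, against 3297 and 3036. Replicate numbers are shared between groups, and no pairing by number was seen. Same-numbered libraries had r of -0.18 to 0.11 in their deviations, and 2 of 12 matched their own number best. Such correlations can miss a pairing. With the replicate block, 6131, 5033 and 0 genes and 5, 5 and 0 members passed (CKD, CKD TRF, and CKD TRF against CKD), and no member's call changed. Planned fits with DESeq2 and edgeR were not run, and limma voom was the count model used on the recovered reads. Depth limits Xdh most, with 36 reads in its lowest library.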
